A study of Mus musculus with 38 samples.

Results

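The myosin genes of the ventricle were followed in left ventricle RNA-seq of 38 mice. The set held 7 of the 29564 genes in the tables, chosen by name from the gene column: the myosin heavy chains Myh6, Myh7 and Myh7b, the light chains Myl2 and Myl3, the myosin-binding protein Mybpc3 and the light chain kinase Mylk3. All 7 were found, each in 1 row, and all 7 were among the 13765 genes that passed the filter on low counts. Hearts came from 4 groups of wild-type mice, with 1 library per mouse. The labels give the strain as C57BL6, and the paper names its J substrain. The non_failing group (n = 8) was given vehicle. The other 3 groups carried a model of heart failure with preserved ejection fraction (HFpEF), made with a high-fat diet and L-NAME, a drug that blocks the synthesis of nitric oxide. These mice were given vehicle (HFpEF+Veh, n = 8), TYA-018, a small-molecule inhibitor of the deacetylase HDAC6 (HFpEF+TYA-018, n = 11), or empagliflozin, which inhibits the glucose transporter SGLT2 (HFpEF+SGLT2i, n = 11). The labels give the mice as female and the methods of the study as male, the labels give no age, and the length of treatment is given differently in the paper and in the title of the data.

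Myosin is the motor of the thick filament. A myosin molecule is a pair of heavy chains, which split ATP and pull on actin, each with a regulatory and an essential light chain wrapped around its lever arm. The adult mouse ventricle uses mainly the fast alpha heavy chain of Myh6, whereas the slow beta heavy chain of Myh7 is made before birth and returns under load or low thyroid hormone. Myl2 encodes the regulatory and Myl3 the essential light chain of the ventricle, Mylk3 the kinase that phosphorylates Myl2, and Mybpc3 the cardiac myosin-binding protein C that holds myosin heads near the filament. Myh7b encodes an ancient slow heavy chain of which the heart makes mostly transcript and little protein.

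The 3 heavy chain genes each carry a microRNA in an intron, and their seeds show how closely the genes are related. The mature sequences from RefSeq are given with the seed, bases 2 to 8, in capitals.
mmu-miR-208a-3p: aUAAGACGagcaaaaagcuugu
mmu-miR-208b-3p: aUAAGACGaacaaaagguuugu
mmu-miR-499-5p: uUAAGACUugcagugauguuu
The first lies in intron 29 of the 39-exon transcript of Myh6 (GRCm38, chr14:54949072-54949093, minus strand), the second in intron 31 of the 41-exon transcript of Myh7 (chr14:54975710-54975731, minus strand) and the third in intron 19 of the 42-exon transcript of Myh7b (chr2:155622893-155622913, plus strand). The seeds of miR-208a and miR-208b were the same in all 7 bases, and miR-499 shared 6 of the 7. Over the whole mature sequence, seed included, 19 of 22 positions of miR-208b and 12 of 21 positions of miR-499 held the same base as miR-208a. The libraries were made from polyadenylated RNA, so the microRNAs themselves were not measured.

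Myh6 and Myh7 sit head to tail on chromosome 14 of GRCm38. Myh7 spans chr14:54970684-54994626 and Myh6 chr14:54941921-54966927, both on the minus strand, with 3.76 kb between them. The antisense RNA gene Mhrt (chr14:54968678-54974349, plus strand) overlaps the end of Myh7. The kit kept the strand, but whether strand was used in quantification is not given in the sources used here, so reads of Mhrt could have counted toward Myh7. Myh7b lies on chromosome 2 (chr2:155611212-155634307), as does Mybpc3 (chr2:91118144-91136516). Myl2 was at chr5:122100951-122113472, Myl3 at chr9:110741861-110769798 and Mylk3 at chr8:85324303-85386345.

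**Figure D1:**
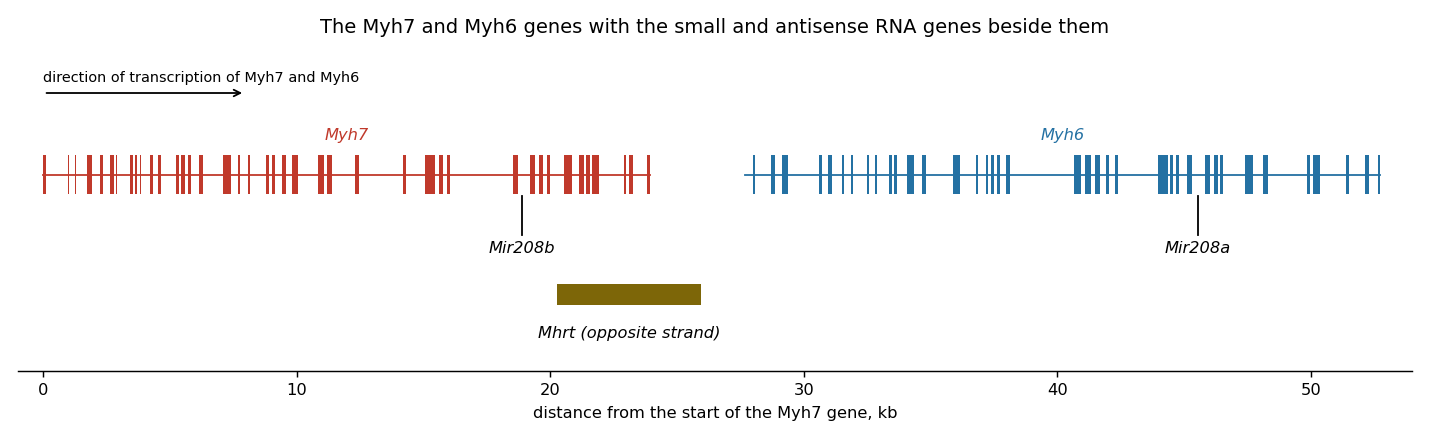
Map of the Myh7 and Myh6 genes with the antisense gene Mhrt and the microRNA genes, drawn to scale along the distance in kb from the start of Myh7, with exons as boxes. The genes follow each other in one direction with 3.76 kb between them, and each holds 1 microRNA in an intron.

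Because the alpha and beta heavy chains are so alike, their transcripts were compared base by base to see how far reads can tell them apart. The coding sequences, 5814 bases in Myh6 and 5805 in Myh7, were identical at 5320 of 5802 aligned positions, or 91.7%. The longest run without a difference was 245 bases. Of all 100-base windows of the Myh7 transcript, 687 of 6036 (11.4%) occurred without a mismatch in a Myh6 transcript. For 50-base windows this was 1373 of 6086 (22.6%). A read that lies wholly in such a window fits both genes by its sequence, and how the reads were assigned was not examined. The stretch of 60 bases in which the genes differ most, with 27 differences in capitals, is shown for both, numbered from the first base of the start codon.
Myh6, bases 3226 to 3285: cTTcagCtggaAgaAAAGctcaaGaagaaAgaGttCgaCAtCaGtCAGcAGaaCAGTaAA
Myh7, bases 3220 to 3279: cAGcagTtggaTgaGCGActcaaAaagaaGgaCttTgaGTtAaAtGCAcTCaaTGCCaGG

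Promoters of both heavy chain genes and of the light chain gene Myl3, which was called in each HFpEF group against non_failing, are shown next, as the 250 bases before the start in RefSeq (GRCm38.p6), with matches to the searched motifs in capitals.
Myh6 promoter, chr14:54966608-54966857, minus strand: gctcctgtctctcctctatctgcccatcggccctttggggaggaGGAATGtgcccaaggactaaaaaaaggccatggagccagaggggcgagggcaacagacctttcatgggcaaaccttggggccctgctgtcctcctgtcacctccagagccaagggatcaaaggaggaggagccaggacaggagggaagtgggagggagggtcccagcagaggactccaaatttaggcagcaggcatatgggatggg
Myh7 promoter, chr14:54994627-54994876, minus strand: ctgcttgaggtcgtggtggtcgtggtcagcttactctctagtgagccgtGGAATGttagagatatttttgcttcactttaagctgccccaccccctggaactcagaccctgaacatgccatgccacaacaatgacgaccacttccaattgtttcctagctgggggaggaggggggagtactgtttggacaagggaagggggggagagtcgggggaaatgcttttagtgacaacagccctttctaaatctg
Myl3 promoter, chr9:110763428-110763677, plus strand: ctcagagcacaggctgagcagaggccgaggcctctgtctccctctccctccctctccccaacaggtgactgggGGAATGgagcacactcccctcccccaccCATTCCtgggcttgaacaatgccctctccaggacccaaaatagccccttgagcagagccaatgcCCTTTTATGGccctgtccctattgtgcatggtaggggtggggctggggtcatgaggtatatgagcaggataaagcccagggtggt
The motifs were searched on both strands: the M-CAT element CATTCC, bound by TEAD factors, the GATA site AGATAA, the TATA box TATAAA, the thyroid hormone half-site AGGTCA, and the MEF2 and CArG elements. Of 32851 promoter windows of the same length, 12.6% held the M-CAT letters, 9.99% the GATA letters, 12.4% the TATA letters, 14.0% the half-site, 2.92% a MEF2 and 1.47% a CArG element. An M-CAT match lay 206 to 201 bases before the start of Myh6 and 201 to 196 bases before that of Myh7, on the opposite strand in both. The Myl3 window held M-CAT letters at 177 to 172 and 149 to 144 bases, and a CArG element at 85 to 76 bases. The start of the Myh6 window lay 320 bases from the annotated gene start and 2 from the nearest annotated transcript start. For Myl3 these were 21817 and 32 bases, so both windows lie within the annotated span of their gene. Myh7b held a GATA match at 133 to 128 bases and a half-site at 46 to 41 bases, and Mybpc3 a MEF2 match at 90 to 81 bases. Of the 2 windows of Myl2, 1 held a GATA match at 211 to 206 bases, and the other held a TATA match at 216 to 211 and a half-site at 141 to 136 bases. The starts of these 2 windows lay 8227 and 7762 bases from the nearest annotated transcript start of Myl2, so the matches are not at its annotated promoter. Of the 2 windows of Mylk3, 1 held GATA matches at 100 to 95 and 50 to 45 bases, and the other an M-CAT match at 148 to 143 bases. A second window of Myh7, before another start in RefSeq, held no match. These are matches of letters and no measured binding.

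Libraries held 21.4 to 59.3 M counts (M stands for 1000000), with a median of 29.5 M. HFpEF+Veh V2523 and V2532 stood apart from the other libraries and are given special mention throughout. The summed level of 6 hepatocyte markers was 960 TPM in V2523 and at most 258 TPM in any other library, with all 6 genes above every other library. The summed level of 10 fast skeletal muscle markers was 94.1 TPM in V2532 and at most 8.97 TPM elsewhere, with 9 of the 10 genes above every other library. TPM is the number of transcripts per 1000000, corrected for length, and is the scale of every level given here. The ventricular cardiomyocyte markers Ttn, Tnnt2, Tnni3, Actc1, Ryr2 and Pln were detected in all groups, with median sums of 14472 TPM in non_failing, 11998 in HFpEF+Veh, 12739 after TYA-018 and 12256 after empagliflozin. The atrial markers summed to between 33.7 and 319 TPM and overlapped in all groups. Hepatocyte sums were 16.3 to 258 TPM in non_failing, with a median of 42.6, and 1.31 to 960 TPM in HFpEF+Veh, with a median of 3.76. They were 1.22 to 2.68 TPM after TYA-018 and 1.18 to 6.32 TPM after empagliflozin, below every non_failing heart. Its relation to the Myh7 to Myh6 ratio is given with the others of that ratio, and its part in the light chain results was not tested.

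Some neighbours in level kept their order in each heart and others did not. Myl2 was highest, at 2.47 ± 0.235 times Myl3 (SD, n = 38), in 38 of 38 libraries. Myl3 stood at 7.64 ± 1.83 times Myh6 (SD, n = 38), again in 38 of 38. Myh6 exceeded Mybpc3 in 27 of 38 libraries, at 1.17 ± 0.248 times its level, so these neighbours did not differ beyond their spread. Mybpc3 was 8.19 ± 1.95 times Mylk3 in 38 of 38 libraries. The 3 lowest genes overlapped in range: Mylk3 exceeded Myh7b in 30 of 38 libraries and Myh7b exceeded Myh7 in 31 of 38. Myh7 was thus the lowest of the set, far below its neighbour Myh6 on the chromosome.

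**Figure D2:**
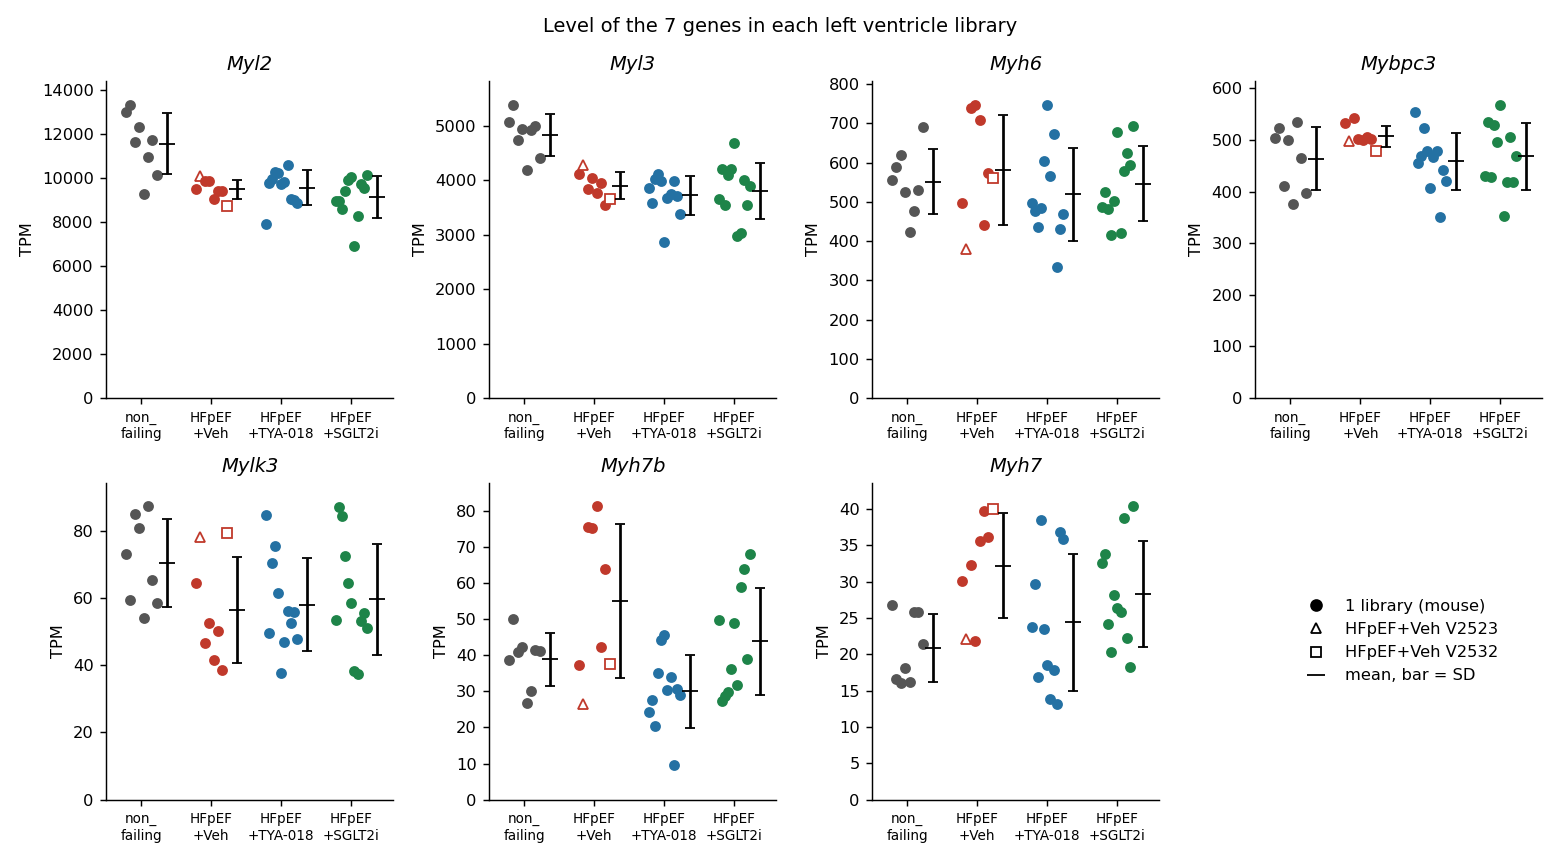
Level of each gene in TPM, 1 panel per gene with its own axis from 0 and 1 point per library, in 4 groups, with the mean and SD. Myl3 was below the lowest non_failing library in 7 of 8 HFpEF+Veh libraries, whereas Myh6 overlapped in all groups.

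The first comparison asked what the HFpEF model does to the myosin genes, with HFpEF+Veh set against non_failing. Both ventricular light chains fell and neither of the main heavy chain genes passed the test. Called at an adjusted p under 0.05 were 2 of the 7 genes, against a background of 3.15% of the 13765 genes tested (433 called). By edgeR 4 of the 7 had an unadjusted p under 0.05, beside 15.87% of all genes. The median log2 fold change of the 7 genes was -0.0037, beside 0.01 over all genes. In whole-tissue RNA a lower level can come from fewer cells of a type or from less RNA per cell, which cannot be told apart here.

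Myl3, the essential light chain, lay between 4194 and 5392 TPM in non_failing, with a median of 4931. In HFpEF+Veh it lay between 3541 and 4272 TPM, with a median of 3891. All 8 HFpEF+Veh libraries were below the non_failing mean and 7 of them were below every non_failing library. The change was -0.41 on the log2 scale (SE 0.08; edgeR quasi-likelihood test, adjusted p = 0.00256), a decrease to 0.751 times, from 4833 ± 379 to 3898 ± 246 TPM (SD, n = 8 and 8).

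Myl2, the regulatory light chain and the most abundant of the set, ran from 9299 to 13358 TPM in non_failing, with a median of 11708. In HFpEF+Veh it ran from 8749 to 10084 TPM, with a median of 9479, and the lowest and the highest values were those of V2532 and V2523. The groups overlapped, although 8 of 8 HFpEF+Veh libraries were below the non_failing mean. The log2 fold change was -0.37 (SE 0.09; edgeR, adjusted p = 0.0121), or 0.774 times. Without V2523 and V2532 the HFpEF+Veh mean was 9527 ± 306 TPM for Myl2 and 3876 ± 211 TPM for Myl3 (SD, n = 6), close to the means of all 8. The ratio of Myl2 to Myl3 did not move with the light chains: it was 2.39 ± 0.132 in non_failing and 2.44 ± 0.114 in HFpEF+Veh (SD, n = 8 and 8). The lowest adjusted p of its 6 comparisons was 0.490 (permutation test, two-sided, resampled between the treatments and exact otherwise). Of the 6 comparisons 0 were called, with 0 unadjusted p-values under 0.05.

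Other messages of the cardiomyocyte were lower beside the light chains. Of the 6 cardiomyocyte markers, 2 were called lower in HFpEF+Veh. Tnnt2, the troponin that binds tropomyosin, had -0.43 (edgeR, adjusted p = 0.00459), and Tnni3, the inhibitory troponin, had -0.34 (edgeR, adjusted p = 0.0129). Under limma the call of Tnni3 was lost and that of Tnnt2 was kept. The log2 fold changes of the 4 that did not pass were -0.42 for Pln, -0.18 for Ryr2, -0.05 for Actc1 and 0.16 for Ttn, so 5 of the 6 were below 0. Relative to the mean log2 level of these 6 markers, a scale chosen after seeing the data, the difference was -0.19 for Myl3 (permutation test, adjusted p = 0.221 over 42 tests) and -0.15 for Myl2 (adjusted p = 0.281), so neither passed. The unadjusted p was 0.0474 for Myl3 and 0.107 for Myl2 (exact permutation test). Test and adjustment differ from those of the counts here, along with the scale. Of the 42 tests 0 passed by the permutation test, and 9 had an unadjusted p under 0.05. The summed fibroblast markers had a median of 261 TPM in non_failing and 319 in HFpEF+Veh, with ranges of 179 to 284 and 254 to 603 TPM, and 2 of 6 were called higher. The summed erythrocyte markers had medians of 3108 and 5163 TPM, with ranges of 1983 to 4448 and 3162 to 23328 TPM, and their 3 genes had log2 fold changes of 1.11 to 1.31 with 0 called by edgeR and 3 at an unadjusted p under 0.05. The part of these lists in the light chain result was not tested.

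The alpha heavy chain Myh6 showed no difference in mean and wide scatter. It ran from 424 to 690 TPM in non_failing, with a median of 542, and from 381 to 748 TPM in HFpEF+Veh, with a median of 566. The lowest HFpEF+Veh value was that of V2523. The log2 fold change was -0.0037, with a 95% confidence interval of -0.30 to 0.29 (edgeR, adjusted p = 0.992), so that changes of up to about 22.4% upward or 18.7% downward were within reach of the data. Its sign turned positive under other settings, for example with library size alone in place of TMM scaling.

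Myh7, the beta heavy chain, ran from 16.1 to 26.9 TPM in non_failing, with a median of 19.8. In HFpEF+Veh it ran from 21.8 to 39.99 TPM, with a median of 34.0. All 8 HFpEF+Veh libraries were above the non_failing mean and 6 were above every non_failing library. The log2 fold change of 0.57 had an interval of 0.13 to 1.00 and did not pass after adjustment (edgeR, p = 0.0117, adjusted p = 0.157). Relative to the cardiomyocyte markers the difference was 0.75 (exact permutation test, p = 0.00124, adjusted p = 0.0522 over 42 tests). Without V2523 and V2532 the mean was 32.6 ± 6.27 TPM (SD, n = 6), beside 32.2 ± 7.17 with them (SD, n = 8).

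The slow chain Myh7b was the most variable of the heavy chains in HFpEF+Veh. Non_failing values ran from 26.7 to 49.97 TPM with a median of 41.1, and HFpEF+Veh values from 26.6 in V2523 to 81.3 TPM with a median of 53.1. The log2 fold change was 0.47, with an interval of -0.02 to 0.97 (edgeR, adjusted p = 0.339). Leaving out V2523 and V2532 moved the HFpEF+Veh mean from 54.9 ± 21.3 (SD, n = 8) to 62.6 ± 18.5 TPM (SD, n = 6).

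Mylk3, the kinase of Myl2, ran from 53.9 to 87.2 TPM in non_failing, with a median of 69.0, and from 38.5 to 79.3 TPM in HFpEF+Veh, with a median of 51.3. The values of V2523 (78.2 TPM) and V2532 (79.3 TPM) were the highest of HFpEF+Veh. With all 8 libraries the log2 fold change was -0.39 (edgeR, adjusted p = 0.231). Without those libraries it was -0.59 and passed the test (edgeR, adjusted p = 0.0272), in a fit that called 916 of 13871 genes in place of 433 of 13765. With only V2523 left out it had -0.45 (edgeR, adjusted p = 0.129, 620 genes called in all), and with only V2532 left out -0.49 (edgeR, adjusted p = 0.0830, 605 genes called in all). Without both, the mean of HFpEF+Veh fell from 56.4 ± 15.8 (SD, n = 8) to 48.9 ± 9.14 TPM (SD, n = 6). Mybpc3 ran from 478 to 542 TPM in HFpEF+Veh and from 375 to 535 TPM in non_failing. Its log2 fold change was 0.04, with an interval of -0.13 to 0.21.

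The balance of the heavy chains was read from the ratio of Myh7 to Myh6 TPM in each library, which does not depend on scaling between libraries. The ratio was 4.998 ± 1.77% over all hearts (SD, n = 38). In non_failing it ran from 2.60 to 5.41%, with a median of 3.65%. In HFpEF+Veh it ran from 2.92 to 9.0%, with a median of 5.93%. The groups overlapped, since V2527 of HFpEF+Veh was as low as the lower non_failing hearts, and 7 of 8 HFpEF+Veh hearts were above the non_failing mean. The mean was 1.49 times that of non_failing on the log scale, a log2 difference of 0.57 (exact permutation test, two-sided, p = 0.0241, adjusted p = 0.0808 over 6 comparisons). Without the non_failing heart V2508 the difference was 0.65 (adjusted p = 0.0452) and without V2527 it was 0.70 (adjusted p = 0.0224), whereas without V2523 and V2532 it was 0.50 (adjusted p = 0.210). Over all 16 tests with 1 library left out the adjusted p ran from 0.0224 to 0.178 (exact permutation test).

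The medians of the treated groups lay between these, and their ranges overlapped both. The ratio ran from 2.45 to 8.54% in HFpEF+TYA-018, with a median of 3.94%, and from 3.08 to 6.70% in HFpEF+SGLT2i, with a median of 5.62%. The log2 difference from HFpEF+Veh was -0.31 for HFpEF+TYA-018 (exact permutation test, adjusted p = 0.502) and -0.12 for HFpEF+SGLT2i (adjusted p = 0.543). With 1 library left out these ran from -0.44 to -0.21 and from -0.26 to -0.025. HFpEF+SGLT2i stood 0.45 above non_failing (exact permutation test, p = 0.0269, adjusted p = 0.0808), with 9 of 11 hearts above the non_failing mean. Without V2508 this was 0.52 (adjusted p = 0.0452), and over all 19 tests with 1 library left out the adjusted p ran from 0.0452 to 0.178 (exact permutation test). HFpEF+TYA-018 was 0.26 above non_failing (exact permutation test, adjusted p = 0.502). The difference between the treatments, TYA-018 minus empagliflozin, was -0.18 (permutation test, adjusted p = 0.525), and -0.28 to -0.10 with 1 library left out. Of the 6 comparisons of the ratio 0 passed by the permutation test after adjustment, and 2 had an unadjusted p under 0.05.

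**Figure D3:**
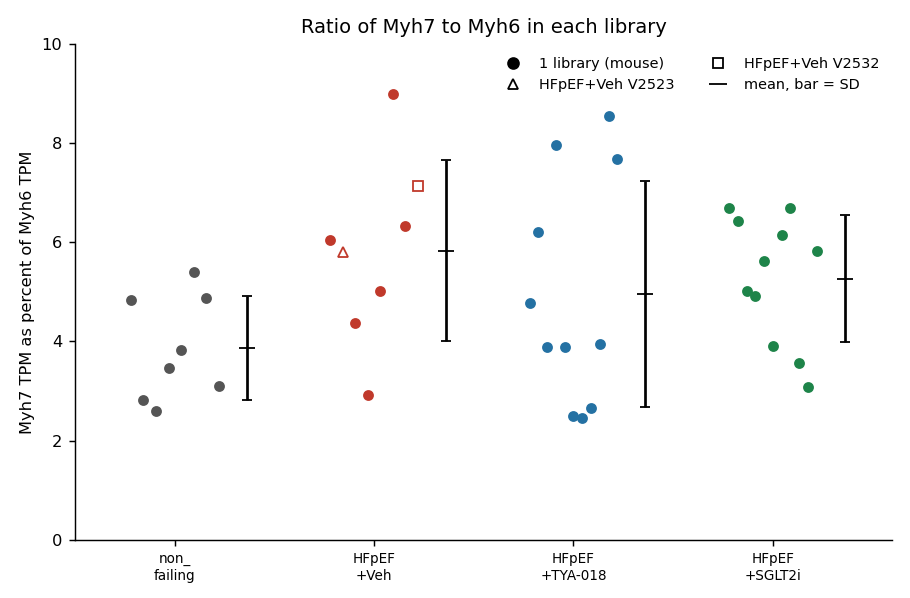
Myh7 TPM as percent of Myh6 TPM in each library, 1 point per heart in 4 groups, with the mean and SD, on an axis from 0. Non_failing hearts reached at most 5.41%, and hearts above 7% were seen in HFpEF+Veh and HFpEF+TYA-018.

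The ratio varied within each group, and other genes varied with it. Over 38 libraries with the group means removed, it went down as Thrb, the beta receptor of thyroid hormone, went up, with r = -0.608 and rho = -0.637 (permutation within groups, adjusted p = 0.00149 and 0.0011 over 11 relations). Within the groups r was -0.31 in non_failing, -0.67 in HFpEF+Veh, -0.71 in HFpEF+TYA-018 and -0.64 in HFpEF+SGLT2i. It went up with the fetal gene Nppa, the atrial natriuretic peptide, with r = 0.549 and rho = 0.533 (permutation, adjusted p = 0.00149 and 0.0044). Ankrd1, a titin-bound stretch protein, gave r = 0.598 and rho = 0.541 (permutation, adjusted p = 0.00161 and 0.00557). Without the 2 libraries farthest from the median r was -0.601 for Thrb, 0.434 for Nppa and 0.549 for Ankrd1. For Ankrd1 r within HFpEF+SGLT2i was 0.14, and in the other groups between 0.43 and 0.79. The remaining 8 relations did not pass: Nppb gave r = 0.375 (permutation, adjusted p = 0.0699), Acta1 0.361 (adjusted p = 0.0699), total counts 0.296 (adjusted p = 0.111) and the hepatocyte list 0.0390 (adjusted p = 0.791). Among them was Thra, the alpha receptor of thyroid hormone, with r = -0.147 (permutation, adjusted p = 0.507). For Thra r was -0.45 in non_failing, -0.52 in HFpEF+Veh, 0.20 in HFpEF+TYA-018 and -0.04 in HFpEF+SGLT2i. Within the groups r with total counts was 0.45 in non_failing, 0.16 in HFpEF+Veh, 0.73 in HFpEF+TYA-018, where Thrb had -0.71, and 0.01 in HFpEF+SGLT2i. Nppa is itself an atrial marker, and the other atrial markers were not set against the ratio.

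In the second comparison HFpEF+TYA-018 was set against HFpEF+Veh to ask what HDAC6 inhibition does in the diseased heart. None of the 7 genes was called by edgeR, against a background of 1.93% (266 of 13765 genes). At an unadjusted p under 0.05 there were 2 of the 7, beside 17.5% of all genes. DESeq2 called 1 of the 7 and 402 genes in all, and limma on log2(TPM + 1) called 0 of the 7 and 42 genes in all. The median log2 fold change of the 7 was -0.00047, beside -0.0088 over all genes.

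The gene nearest to the threshold was Myh7b. It ran from 9.58 TPM in V2555 to 45.6 TPM in HFpEF+TYA-018, with a median of 30.3, against 26.6 to 81.3 TPM and a median of 53.1 in HFpEF+Veh. All 11 treated hearts were below the HFpEF+Veh mean, and the ranges overlapped. The log2 fold change was -0.79, with an interval of -1.25 to -0.33 (edgeR, p = 0.00119, adjusted p = 0.0542), or 0.578 times. It was called with DESeq2 (adjusted p = 0.0248), with library size alone (edgeR, adjusted p = 0.0140), with no filter on low counts (edgeR, adjusted p = 0.0372) and without V2523 and V2532 (-0.97; edgeR, adjusted p = 0.0450). Myh7b was not called with mitochondrial genes left out (edgeR, adjusted p = 0.0525), with a length offset (edgeR, adjusted p = 0.0718), with limma (adjusted p = 0.0877), in a fit of only the 2 groups (edgeR, adjusted p = 0.133) or relative to the cardiomyocyte markers (-0.83; permutation test, adjusted p = 0.134 over 42 tests). With library size alone the median of all genes moved to -0.14, and 1096 genes were called in place of 266. It was also called when any one of V2521, V2523, V2549, V2550, V2571 or V2572 was left out, with an adjusted p between 0.0317 and 0.120 over all 38 such fits.

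Long transcripts as a whole also differed between these groups. An index chosen after seeing the data, the mean log2 level of 491 genes with transcripts over 6000 bases minus that of 2020 genes under 1000 bases, differed by -0.21 between HFpEF+TYA-018 and HFpEF+Veh (permutation test, adjusted p = 0.0378) and by -0.25 between TYA-018 and empagliflozin (permutation test, adjusted p = 0.00072). It was -0.649 in V2555, the heart with the lowest Myh7b, Myh6 and Myh7 of all 38. Across the 38 libraries, with group means removed, the index had r = 0.431 with Myh7b, 0.382 with Myh6, 0.339 with Myh7, -0.0847 with Mybpc3, -0.0568 with Mylk3, -0.491 with Myl2 and -0.641 with Myl3. Myh7b itself had a mean effective length of 3218 bases in HFpEF+TYA-018 and 3381 in HFpEF+Veh. Both are below the bound of the index, but effective length is an estimate, and the full length of its transcripts was not set against that bound. These values share library and scaling, and the part of the index in the Myh7b result was not tested.

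The other members overlapped between HFpEF+TYA-018 and HFpEF+Veh. Myl2 held 7917 to 10620.0 TPM after TYA-018, and its log2 fold change was 0.17 (edgeR, p = 0.0453, adjusted p = 0.273), and Myl3 from 2873 to 4119 TPM with 0.10 (interval -0.06 to 0.26). On the TPM scale the mean of Myl3 was lower after TYA-018, 3721 ± 356 (SD, n = 11) against 3898 ± 246 TPM (SD, n = 8), so its sign depended on the scaling. Myh7 lay between 13.1 and 38.5 TPM, and differed by -0.26 on the log2 scale, with an interval of -0.66 to 0.14. Myh6 had 333 to 746 TPM and an interval of -0.27 to 0.27. For Mylk3 the interval was -0.19 to 0.44, and for Mybpc3 it was -0.20 to 0.12.

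Empagliflozin was compared with vehicle in the same way. Here too 0 of the 7 genes were called by edgeR, against a background of 0.85% (117 of 13765 genes). At an unadjusted p under 0.05 there were 0 of the 7, beside 10.05% of all genes. DESeq2 called 0 of the 7 and 115 genes in all, and limma called 0 genes of any kind. The number called over all genes fell to 2 without V2523, to 20 without V2523 and V2532 and to 3 in a fit of only the 2 groups, with 0 members among them each time. Myh7b had the largest difference, with 27.4 to 68.2 TPM and a median of 38.9 in HFpEF+SGLT2i and a log2 fold change of -0.30, with an interval of -0.76 to 0.15 (edgeR, adjusted p = 0.694). Myl2 ran from 6926 to 10162 TPM and Myl3 from 2978 to 4681 TPM, with log2 fold changes of 0.0032 (interval -0.16 to 0.17) and 0.07 (interval -0.08 to 0.23). Myh7 ran from 18.3 to 40.4 TPM with -0.13 (interval -0.54 to 0.27). The sign of Myl2 changed under other settings.

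Set against each other, the treatments differed in no member by edgeR. The background of this comparison was 0% (0 of 13765 genes), with 1821 genes and 2 of the 7 members at an unadjusted p under 0.05. DESeq2 called 134 genes in all and limma 0, with 0 members in either. With a length offset edgeR called 5 genes in all, and without V2570 of HFpEF+TYA-018 it called 17. The 2 members at an unadjusted p under 0.05 were Myh7b, with -0.49 for HFpEF+TYA-018 minus HFpEF+SGLT2i (interval -0.91 to -0.06; edgeR, adjusted p = 0.308), and Myl2, with 0.17 (interval 0.01 to 0.32; edgeR, adjusted p = 0.328). For the remaining 5 genes the intervals included 0, the widest being that of Myh7, from -0.49 to 0.24.

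The treated HFpEF hearts were last compared with the same 8 non_failing hearts that served for HFpEF+Veh. HFpEF+TYA-018 had 1 of 7 members called, against a background of 7.39% (1017 of 13765 genes). By edgeR 2 of the 7 had an unadjusted p under 0.05, beside 21.97% of all genes. Myl3 was lower, by -0.31 (SE 0.08; edgeR, adjusted p = 0.00814), in 11 of 11 hearts, and its highest treated value, 4119 TPM, was below the lowest non_failing value, 4194 TPM. Myl2 had -0.20 (interval -0.36 to -0.04; edgeR, adjusted p = 0.129), and was called with limma on log2(TPM + 1) (adjusted p = 0.0166), with library size alone (edgeR, adjusted p = 0.0278) and with a length offset (edgeR, adjusted p = 0.0348). Myh7 had 0.31 (interval -0.10 to 0.71). Relative to the cardiomyocyte markers Myl3 differed by -0.22 (permutation test, adjusted p = 0.220), which did not pass. Of the 6 cardiomyocyte markers 0 were called by edgeR in this comparison and 1 had an unadjusted p under 0.05, with a median log2 fold change of -0.14. The 3 erythrocyte markers had a median of 1.15, with 1 called higher and 3 at an unadjusted p under 0.05, and their summed level ran from 2493 to 12629 TPM, with a median of 6868. The call, that of Hbb-bs, was lost in 10 of 38 fits without 1 library (edgeR, adjusted p up to 0.0859) and with limma. The part of these markers in the Myl3 result was not tested.

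HFpEF+SGLT2i had 2 of 7 members called against a background of 6.45% (888 of 13765 genes). By edgeR 3 of the 7 had an unadjusted p under 0.05, beside 19.64% of all genes. Myl2 was lower by -0.37 (SE 0.08; edgeR, adjusted p = 0.00348) and Myl3 by -0.34 (SE 0.08; edgeR, adjusted p = 0.00388). Tnnt2 and Tnni3 were called lower in this comparison too, by -0.37 and -0.32. Relative to the markers the differences were -0.18 and -0.20 (permutation test, adjusted p = 0.220 for both), so neither passed. Myh7 had 0.43 (interval 0.03 to 0.84; edgeR, p = 0.0369, adjusted p = 0.216).

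**Figure D4:**
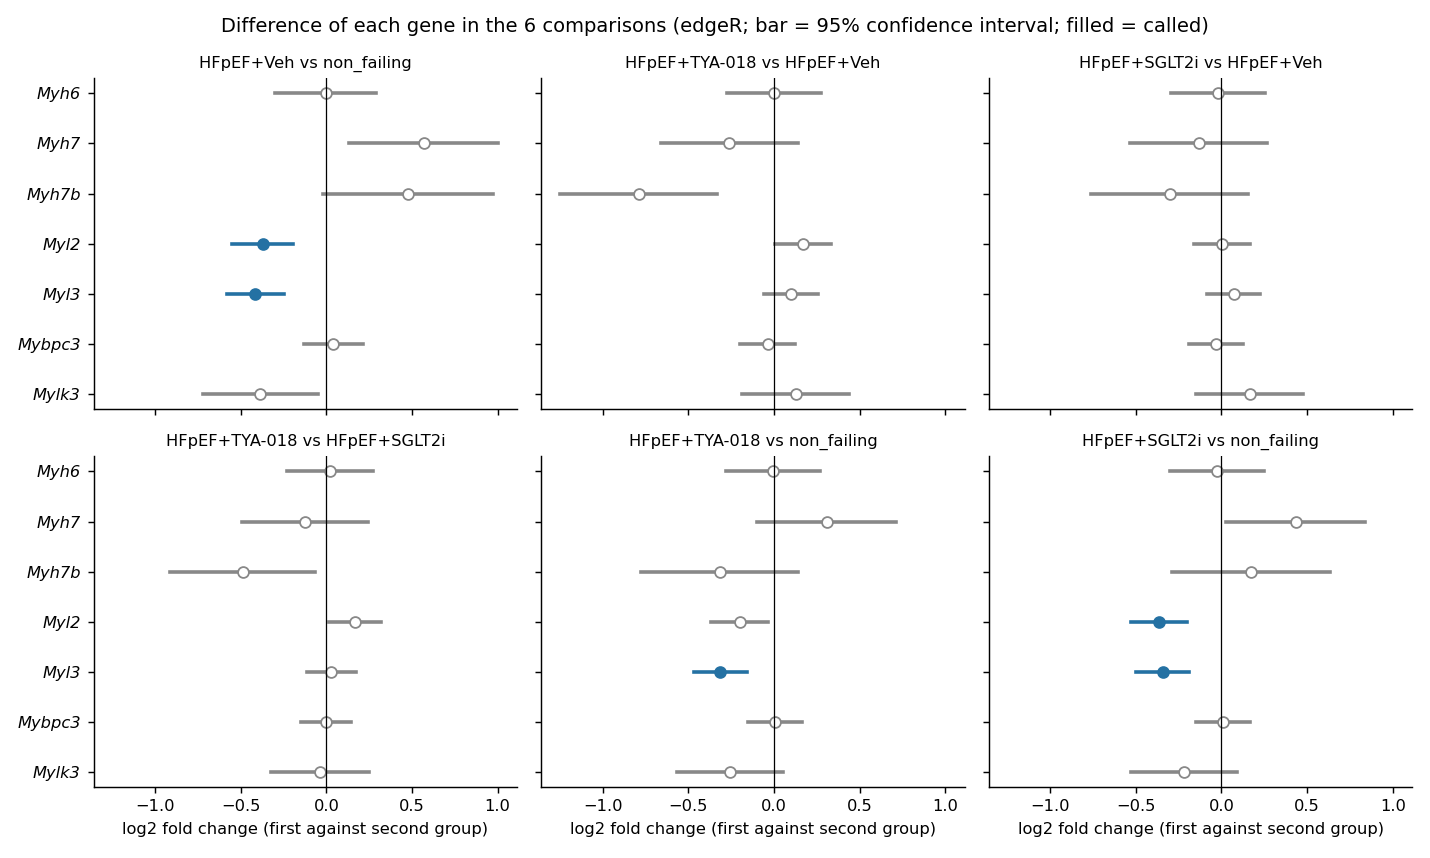
Log2 fold change of each of the 7 genes in the 6 comparisons, 1 panel per comparison, first group against second, with bars for the 95% confidence interval of edgeR and filled points for called genes. Filled points are Myl2 and Myl3 in HFpEF+Veh and HFpEF+SGLT2i against non_failing and Myl3 in HFpEF+TYA-018 against non_failing.

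Across hearts the members varied to different degrees with each other. With group means removed, Myh6 and Myh7b had r = 0.837 over 38 libraries of log2 levels, the closest pair, while Myh6 and its neighbour Myh7 had r = 0.0111. Myl2 and Myl3 had r = 0.564, Myl3 and Mybpc3 0.60, and Mylk3 and Myh7b -0.471. The genes most like each member were ranked over the 38 libraries without removing group means. For Myh6 these were Rbm20, the titin splicing factor, with r = 0.903, and Map3k7 with 0.873. For Myh7b they were Mdn1 (r = 0.893) and Kat6b (0.891), for Myl2 Tnni3 (0.904) and S100a1 (0.887), and for Mylk3 Gbas (0.946) and Atp2a2, the calcium pump of the sarcoplasmic reticulum (0.942). Myl3 was most like Gcat (0.823, and 0.622 with group means removed, a ranking in which Gcat, Tnni3 and Atp2a2 were no longer among the first 5), Mybpc3 like Pacsin3 (0.731), and Myh7 like Mybpc2, the fast isoform of myosin-binding protein C, at only 0.677. All such values share the library and its depth, and are given as a description.

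**Figure D5:**
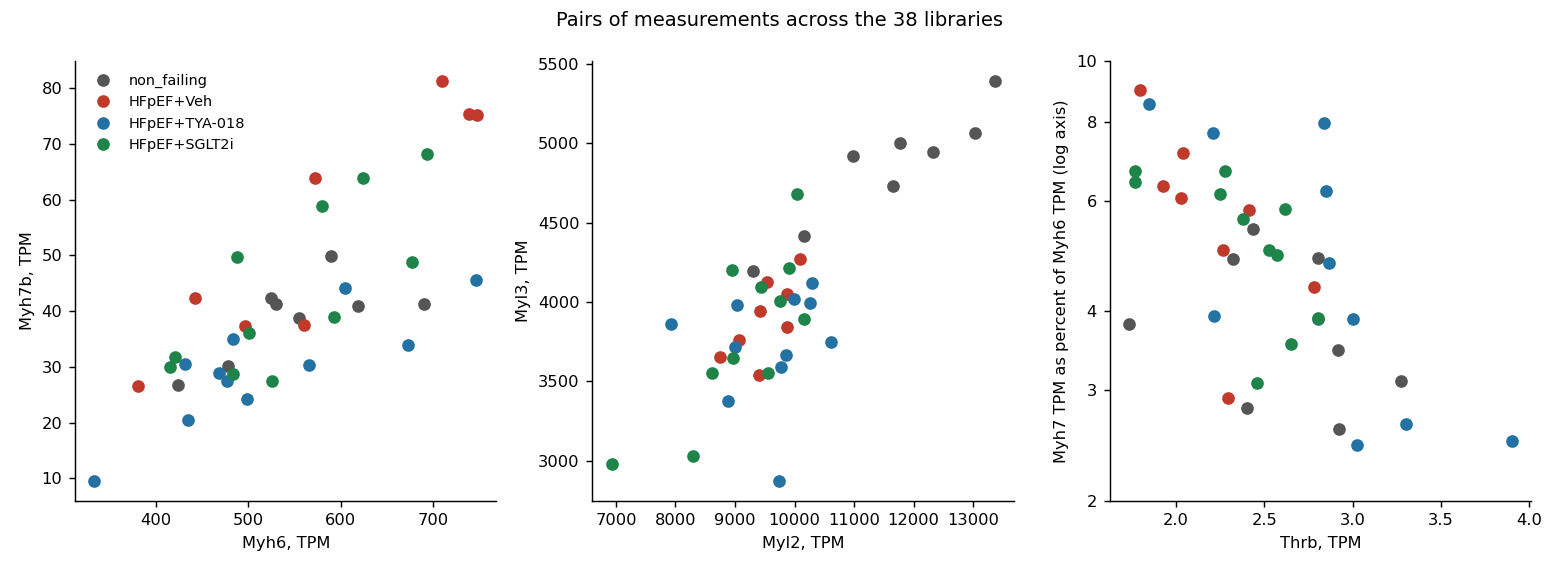
Pairs of measurements across the 38 libraries, 1 point per heart, coloured by group. Myh6 and Myh7b rise together (r = 0.837 with group means removed), Myl2 and Myl3 less closely (r = 0.564), and the ratio of Myh7 to Myh6 is lower where Thrb is higher (r = -0.608).

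The deposited effective transcript lengths of the members were compared as well, since they change with the mix of transcripts of a gene. The bias corrections of salmon also enter them, so the tests do not read that mix alone. Relative to the median length over the genes tested in each library, 0 of 42 tests, 7 genes in 6 comparisons, passed by the permutation test, with 10 at an unadjusted p under 0.05 and a lowest adjusted p of 0.0832. For the lengths as deposited 0 of 42 passed by the permutation test, with 2 under 0.05 and a lowest adjusted p of 0.242.

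The other myosin genes were counted from lists. Of 7 other sarcomeric heavy chains (Myh1, Myh2, Myh3, Myh4, Myh8, Myh13 and Myh15), 0 passed the filter on low counts, and no test was made on them. Of the 4 nonmuscle and smooth muscle heavy chains, 0 were called by edgeR in any of the 6 comparisons, with 7 of 24 unadjusted p-values under 0.05, beside 10.05 to 21.97% of all genes per comparison. Among 9 other light chains, 1 was called higher and 0 lower in HFpEF+Veh against non_failing, beside 3.15% of all genes called. This was Myl1, the essential light chain of fast skeletal muscle, which rose by 0.97 (SE 0.14; edgeR, adjusted p = 1.92e-05), from 25.1 ± 7.94 to 52.5 ± 8.81 TPM (SD, n = 8 and 8), and the highest value was in V2521. It was also higher in HFpEF+TYA-018 (0.88) and in HFpEF+SGLT2i (0.77) than in non_failing, and was the 1 of the 9 called in each, beside 7.39% and 6.45% of all genes. Against HFpEF+Veh neither treatment gave a call, with -0.09 for TYA-018 and -0.20 for empagliflozin.

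Of 9 light chain kinase and phosphatase genes 8 were tested, and 1 was called lower in HFpEF+Veh against non_failing, beside 3.15% of all genes called. Mylk4, a kinase related to Mylk3, fell by 0.93 on the log2 scale (SE 0.26; edgeR, adjusted p = 0.0378), from 16.4 ± 4.59 to 9.0 ± 4.37 TPM (SD, n = 8 and 8). In the comparisons of HFpEF+TYA-018 and of HFpEF+SGLT2i with non_failing, 2 of the 8 were called lower in each, Mylk4 and the calcium-dependent kinase Camk2d, beside 7.39% and 6.45% of all genes. Of 14 thick filament and M-band genes 11 were tested, and in HFpEF+Veh 2 were called lower than in non_failing, against the same 3.15%: Myom3 by -0.63 (edgeR, adjusted p = 0.00703) and Myom2 by -0.59 (edgeR, adjusted p = 0.0379), both proteins that crosslink thick filaments at the M-band. After TYA-018, Myom2 was the 1 of the 11 called against non_failing, by -0.59 (edgeR, adjusted p = 0.0111), beside 7.39% of all genes. After empagliflozin 0 of the 11 were called by edgeR, beside 6.45%. Of 7 genes for myosin folding and methylation, 1 was called in 1 of the 6 comparisons (1 of 42 tests). This was the myosin chaperone Unc45b, higher by 0.24 in HFpEF+SGLT2i than in non_failing (edgeR, adjusted p = 0.0203), where 6.45% of all genes were called.

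Regulators of the cardiac myosin genes were represented by 22 genes, of which 19 were tested. In HFpEF+Veh against non_failing 1 was called higher and 1 lower, beside 3.15% of all genes called, and 8 of the 19 had an unadjusted p under 0.05, beside 15.87% of all genes. Dio2, which makes active thyroid hormone, was higher by 1.68 (edgeR, adjusted p = 0.00529) at a very low level, 0.449 ± 0.330 against 0.133 ± 0.0442 TPM (SD, n = 8 and 8), and Myocd, a coactivator of serum response factor, was lower by -0.69 (edgeR, adjusted p = 0.0310). Against the same non_failing hearts 1 was called higher and 2 lower after TYA-018, beside 7.39% of all genes: Dio2 by 1.14, Myocd by -0.68 and Mef2a by -0.21. After empagliflozin 1 was called higher and 3 lower, beside 6.45% of all genes: Mef2d by 0.35, Myocd by -0.67, Pura by -0.23 and Mef2a by -0.18. In HFpEF+TYA-018 against HFpEF+Veh 2 were called higher and 0 lower, beside 1.93% of all genes: the transcription factor Tbx5 by 0.56 (edgeR, adjusted p = 0.0204) and Thrb by 0.45 (edgeR, adjusted p = 0.0281), the latter from 2.19 ± 0.314 (SD, n = 8) to 2.81 ± 0.563 TPM (SD, n = 11). In HFpEF+SGLT2i Tbx5 alone was called against HFpEF+Veh, beside 0.85% of all genes, higher by 0.64 (edgeR, adjusted p = 0.00612), and Thrb had 0.16 (adjusted p = 0.661). Between the treatments Thrb differed by 0.28 (edgeR, p = 0.00869, adjusted p = 0.208), and in that comparison 0 of the 19 genes were called by edgeR, with 4 at an unadjusted p under 0.05.

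Of the 4 stress genes that often move with Myh7, 1 was called in HFpEF+Veh against non_failing, beside 3.15% of all genes. Acta1, the skeletal actin of the fetal heart, rose by 1.48 (SE 0.28; edgeR, adjusted p = 0.00141), from 61.8 ± 19.5 to 188 ± 35.8 TPM (SD, n = 8 and 8), and its ranges did not overlap. It was called against non_failing after TYA-018 (1.52; edgeR, adjusted p = 0.000274) and after empagliflozin (1.44; edgeR, adjusted p = 0.000531) as well, 1 of the 4 in each, beside 7.39% and 6.45% of all genes. Nppb, the B-type natriuretic peptide, had 0.58 (edgeR, adjusted p = 0.207), Ankrd1 0.32 and Nppa -0.28. In HFpEF+TYA-018 against HFpEF+Veh Nppb was the 1 of the 4 called, lower by -0.86 (edgeR, adjusted p = 0.0300), beside 1.93% of all genes, and Acta1 had 0.03. In HFpEF+SGLT2i against HFpEF+Veh 0 of the 4 were called by edgeR, with 1 of them, Nppb, at an unadjusted p under 0.05 (-0.69, p = 0.00301).

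Calls of these list genes were also followed through fits that each left out 1 of the 38 libraries, a step chosen after seeing the data. Those of Myl1, Acta1, Camk2d, Mef2d and Myom3 given above held in all 38 fits of each comparison. Against HFpEF+Veh, Tbx5 was not called after empagliflozin when V2523 was left out (edgeR, adjusted p = 0.0721) or after TYA-018 when V2530 was left out (adjusted p = 0.0590). With limma Tbx5 was called after neither treatment. It was also not called after empagliflozin in a fit of only the 2 groups or after TYA-018 with library size alone. Thrb lost its call after TYA-018 without V2529 or V2530, with an adjusted p of up to 0.0619 (edgeR), and without V2523 and V2532 together (0.43; edgeR, adjusted p = 0.0735). Thrb was also not called with library size alone, with limma or in a fit of only the 2 groups. Nppb lost its call in 4 of the 38 fits, without V2528, V2530, V2551 or V2552 (edgeR, adjusted p up to 0.0778), and without V2523 and V2532 together (-0.91; edgeR, adjusted p = 0.0580). Nppb was also not called in a fit of only the 2 groups. In HFpEF+Veh against non_failing the call was lost in 10 fits for Mylk4 and for Myom2 and in 8 for Myocd, with an adjusted p of up to 0.0978, 0.102 and 0.0730 (edgeR). Mylk4 was also not called there with library size alone or with no filter on low counts. Myom2 was not called with either of these, with a length offset or with limma. In HFpEF+TYA-018 against non_failing the call was lost in 28 fits for Mylk4, with an adjusted p of up to 0.121, in 7 for Dio2 and in 1 for Mef2a (edgeR). Mylk4 was also not called there with no filter or with a length offset, and Dio2 was not called with limma. In HFpEF+SGLT2i against non_failing the call was lost in 9 fits for Mef2a, in 3 for Pura and in 1, without V2507, for Unc45b (edgeR). Mef2a was also not called there with library size alone, no filter, a length offset, limma or only the 2 groups. Pura was not called with a length offset or with limma, and Unc45b was not called with library size alone.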

How the data were processed

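Polyadenylated left ventricle RNA was sequenced from 38 mice, and groups and mouse numbers came from the sample titles. The authors trimmed reads with fastp and ran salmon 1.6.0, correcting for biases of sequence, GC content and position. Gene values were made with tximport. Deposited expected counts estimate the reads of each gene. The TPM values and the mean effective transcript lengths per gene (a score in bases) were also deposited by the authors. The methods name GRCm38, the labels hg38, and both differ on sex, read length and pairing, none of which entered a test. Coordinates are 1-based, from GENCODE M21 (GRCm38). Sequences are from RefSeq (GRCm38.p6) and the genome.

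Expected counts were rounded. Genes were kept with filterByExpr (13765 of 29564), scaled with TMM and tested with edgeR 4.0.16 (quasi-likelihood F test, two-sided, R 4.3.3) in 1 fit of 4 groups without covariates, adjusted with Benjamini-Hochberg over all genes and called under 0.05. DESeq2 1.42.0 and limma 3.58.1 on log2(TPM + 1), the scale of the study, were alternatives, with other scalings, filters, a length offset, 2-group fits and fits without single libraries. Ratios, lengths and marker-relative levels were compared by permutation (exact, or 100000 resamples for 11 against 11). Confidence intervals are at 95%. The labels give a mouse number of its own to each library. As a check for repeated files only, all 166 within-group pairs differed by more than counting noise. The named genes are the members, up to 3 called genes per list and comparison, and the 5 genes most like each member, of which the first are given. Members and lists were chosen with earlier results of these data known.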

Additional observations from a re-analysis of the deposited data

How the results depend on the processing

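The calls of Myl2 and Myl3 against non_failing were kept in each fit that left out 1 of the 38 libraries. The 7 genes had 0 to 1 calls in HFpEF+TYA-018 against HFpEF+Veh over those fits, where Myh7b gave the 1. That count was also 1 with DESeq2 (402 genes called in all), with library size alone (1096), with no filter (618 of 21871) and without V2523 and V2532 (90), beside 266 in the fit reported. In HFpEF+TYA-018 against non_failing the count was 2 with library size alone, with a length offset and with limma, where Myl2 was added, with 904, 851 and 597 genes called in all, beside 1017. Relative to the cardiomyocyte markers, an alternative chosen after seeing the data, with another test and adjustment, the 5 light chain calls did not pass, and the cause was not tested. No paired analysis was possible because mouse numbers differ in every group.

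The Myh7 to Myh6 ratio had a log2 difference of 0.47 to 0.70 in HFpEF+Veh and 0.37 to 0.52 in HFpEF+SGLT2i against non_failing, with 1 library left out. Relations of the ratio that did not pass changed sign for the skeletal muscle list, to -0.287 without V2523 and V2532 and -0.0742 without the farthest 2 libraries, and for the hepatocyte list, to -0.0146 without V2523 and V2532.

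Signs that changed belonged to values near 0 that were not called. For Myh6 these were, in HFpEF+Veh against non_failing, 0.051 with library size alone, 0.0021 without a filter, 0.044 with limma, 0.092 without V2523 and V2532, 0.17 relative to the markers and -0.080 to 0.070 with 1 library left out. In HFpEF+TYA-018 against HFpEF+SGLT2i, Myh6 had -0.034 with library size alone, -0.019 with a length offset, -0.093 with limma, -0.084 relative to the markers and -0.062 to 0.069 with 1 left out. Against HFpEF+Veh, Myh6 had 0.00044 with only the 2 groups and -0.087 to 0.072 with 1 left out for HFpEF+TYA-018, and -0.095 to 0.052 with 1 left out for HFpEF+SGLT2i. Against non_failing, Myh6 had 0.051 relative to the markers and -0.091 to 0.032 with 1 left out for HFpEF+TYA-018, and 0.14 and -0.059 to 0.010 for HFpEF+SGLT2i.

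For Myl2 in HFpEF+SGLT2i against HFpEF+Veh the values were -0.0018 with DESeq2, -0.075 with library size alone, -0.0024 without a filter, -0.039 with limma, -0.0011 with only the 2 groups, -0.033 without V2523 and V2532, -0.027 relative to the markers and -0.024 to 0.037 with 1 left out. With library size alone, limma and the markers, Myl3 had -0.029, -0.058 and -0.037 in HFpEF+TYA-018 against HFpEF+Veh, -0.0080, -0.022 and -0.011 in HFpEF+SGLT2i against HFpEF+Veh, and -0.021, -0.036 and -0.027 in HFpEF+TYA-018 against HFpEF+SGLT2i, where it had -0.0053 to 0.060 with 1 left out.

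For Mybpc3 the values were -0.050 with library size alone, -0.0099 with limma, -0.0064 with only the 2 groups and -0.033 to 0.030 with 1 left out in HFpEF+TYA-018 against non_failing, and -0.030 to 0.043 with 1 left out in HFpEF+SGLT2i against non_failing. In HFpEF+TYA-018 against HFpEF+SGLT2i they were 0.015 with a length offset, 0.0021 without V2523 and V2532 and -0.039 to 0.031 with 1 left out, and in HFpEF+SGLT2i against HFpEF+Veh -0.058 to 0.0020 with 1 left out. Mylk3 had -0.0024 with library size alone in HFpEF+TYA-018 against HFpEF+Veh, and 0.0040 with a length offset and -0.094 to 0.030 with 1 left out in HFpEF+TYA-018 against HFpEF+SGLT2i.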
